A study of Homo sapiens with 4 samples.

Results

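The 9 genes KAT6A, KAT6B, KAT5, KAT7, KAT8, KAT2A, KAT2B, EP300 and CREBBP encode histone acetyltransferases, the enzymes that place acetyl groups on histone lysines and act as coactivators of transcription factors. They were taken by name from the 19974 protein-coding genes annotated on chromosomes 1 to 22 and X, and every called peak touching a gene or the 20 kb on each side of it was collected. That gave 13 of the 9829 PPARα peaks and 45 of the 46021 PML/RARA peaks. The genes were chosen by name and with the peaks in view, and among the values that led to the choice was the −log10 q of the PPARα peak at KAT6B, one of the highest of that list. The values below therefore describe the genes, and no test was run on them.

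The material was NB4, a human acute promyelocytic leukemia cell line that carries the fusion of PML and RARA. CUT&Tag, in which an antibody brings a transposase to chromatin so that nearby DNA is cut, tagged and sequenced, was run with an antibody against PPARα and with one against PML/RARA, and each had its own IgG library. The antibody libraries carry the label Treatment and the IgG libraries the label Control, with no agent, dose or time named. Which part of the fusion the PML/RARA antibody binds is not stated, so normal PML or RARA protein could also give its peaks. Each antibody has 1 peak list and no replicate. The IgG libraries were not analysed here, read depth is unknown, and the spread between libraries cannot be given for any value.

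Histone acetyltransferases fall into families by their catalytic domain. The MYST family holds KAT6A (MOZ), KAT6B (MORF), KAT5 (TIP60), KAT7 (HBO1) and KAT8 (MOF), each the catalytic subunit of a larger complex. KAT2A (GCN5) and KAT2B (PCAF) are the catalytic subunits of the SAGA and ATAC complexes, and EP300 and CREBBP are the broad coactivators p300 and CBP. Nuclear receptors such as PPARα and RARA bind DNA with the partner RXR and exchange corepressor complexes for acetyltransferase complexes when a ligand binds, and PML/RARA keeps corepressors at its sites in promyelocytic leukemia. KAT6A, KAT6B, EP300 and CREBBP are themselves rearranged in other acute myeloid leukemias.

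The sequences below are the 250 bases before the transcription start of 4 of these genes, from RefSeq on hg38, read 5′ to 3′ along the gene's strand. These 4 genes had start peaks of both lists, and the stretches differ in how far the peaks cover them. Both peaks cover all of the KAT5 stretch and of the KAT6B stretch before the downstream start. The KAT7 stretch is covered over 88 bases by the PPARα peak and over 217 by the PML/RARA peak. The EP300 stretch is covered over 147 bases by a PML/RARA peak alone, and the KAT6B stretch before the middle start, added after its values were seen, is covered by neither list. Capitals mark the letters CCGGAAG (an ETS-type motif), CCAAT (the CCAAT box) and GGGCGG (the GC box) on either strand.
KAT6B downstream start, chr10:74826350-74826599, plus strand: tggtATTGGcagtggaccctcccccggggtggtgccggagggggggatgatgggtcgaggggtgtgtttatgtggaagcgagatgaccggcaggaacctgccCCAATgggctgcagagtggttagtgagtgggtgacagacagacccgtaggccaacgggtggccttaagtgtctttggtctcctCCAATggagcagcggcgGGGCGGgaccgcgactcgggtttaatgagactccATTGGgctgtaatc
KAT6B middle start, chr10:74825229-74825478, plus strand: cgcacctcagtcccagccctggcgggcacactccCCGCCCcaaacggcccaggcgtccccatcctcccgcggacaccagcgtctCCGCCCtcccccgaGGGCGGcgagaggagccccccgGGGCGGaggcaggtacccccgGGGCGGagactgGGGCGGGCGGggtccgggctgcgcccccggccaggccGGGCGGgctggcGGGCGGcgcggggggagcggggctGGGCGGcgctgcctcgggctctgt
KAT5, chr11:65712002-65712251, plus strand: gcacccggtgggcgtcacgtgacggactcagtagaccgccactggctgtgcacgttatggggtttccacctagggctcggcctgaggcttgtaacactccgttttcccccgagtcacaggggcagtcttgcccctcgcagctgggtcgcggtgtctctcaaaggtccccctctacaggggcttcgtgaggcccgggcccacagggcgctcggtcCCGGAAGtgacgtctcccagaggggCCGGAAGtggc
KAT7, chr17:49788431-49788680, plus strand: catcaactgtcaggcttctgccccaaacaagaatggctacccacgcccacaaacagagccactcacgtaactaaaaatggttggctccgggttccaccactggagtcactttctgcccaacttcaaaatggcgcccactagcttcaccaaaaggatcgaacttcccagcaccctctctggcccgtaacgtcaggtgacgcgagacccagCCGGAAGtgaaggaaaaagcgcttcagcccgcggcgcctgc
EP300, chr22:41092342-41092591, plus strand: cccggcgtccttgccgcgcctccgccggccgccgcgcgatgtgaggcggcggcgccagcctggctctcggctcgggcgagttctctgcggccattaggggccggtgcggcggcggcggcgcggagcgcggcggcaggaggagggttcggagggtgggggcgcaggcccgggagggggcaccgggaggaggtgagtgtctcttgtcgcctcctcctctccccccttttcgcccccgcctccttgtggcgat

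Motifs were searched on both strands of 300-base promoter windows, from 250 bases before to 50 after a start. No promoter window of the 7 genes with a table entry held the nuclear receptor core element AGGTCA, which 11.9% of all 22156 coding-gene windows held. Nor did any hold that sequence as a direct repeat with 1, 2 or 5 bases of any kind between the copies, forms found in 5, 1 and 1 of all windows. The absence says only that these letters are not in these windows. Of the windows searched, just those at KAT5, KAT7 and the downstream start of KAT6B overlap a PPARα peak, so the peaks themselves were mostly not searched. CCGGAAG occurred at 2 places in the KAT5 window and at 1 place in the KAT7 window, while 12.8% of all windows held at least 1 match and 2.30% at least 2. The 2 KAT5 matches begin 36 and 11 bases before the start, and the KAT7 match begins 41 bases before it.

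At the downstream start of KAT6B the window held 4 CCAAT matches, beginning 246, 148, 65 and 14 bases before the start, in both orientations. Windows with at least 4 such matches made up 1.13% of all. The middle KAT6B start, with no match to CCAAT, held 10 matches to GGGCGG, some of them overlapping, a number reached by 0.257% of windows. These motifs, CCAAT and GGGCGG, were chosen after the sequences were seen. The covered KAT6B window was also the least GC-rich of the gene's 3 windows, at 58.7% GC with 15 CpG. The middle start had 80.7% and 35 CpG. The upstream start, covered by neither list as well, had 69% and 29 CpG, with 1 match to GGGCGG. The median over all windows was 62.3% and 21 CpG.

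KAT6B, the paralog of KAT6A and the catalytic subunit of the MORF complex, carried the strongest start signal of the 9 genes for PPARα. Its PPARα peak ran over 1160 bases from 74825767 to 74826926 on chromosome 10, with a fold enrichment over background of 16.2 and −log10 q 122, which put it at rank 5 of 9829. The PML/RARA peak there spanned 74825962 to 74827122, at fold 17.1 and −log10 q 632, at rank 38 of 46021. Fold and q are the authors' values for each peak and are used only within a list. The summits of these peaks were 5 bases apart, and 965 bases, or 83.2% of the PPARα peak, were shared. PPARα peaks had a median width of 503 bases over their list, and PML/RARA peaks one of 241.

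RefSeq gives KAT6B 3 starts on the plus strand, at 74825255, 74825479 and 74826600. They are called here the upstream, middle and downstream start. Of these only the downstream one lay inside either peak. The PPARα summit was 196 bases before it and the PML/RARA summit 191 bases before it. From the middle start the PPARα summit was 925 bases away and the PML/RARA summit 930, and neither peak reached that start, the edges ending 288 and 483 bases short of it. Measured from the annotated gene boundary instead, the PML/RARA peak began 1026 bases inside, so a 1 kb window around that boundary missed it.

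**Figure D1:**
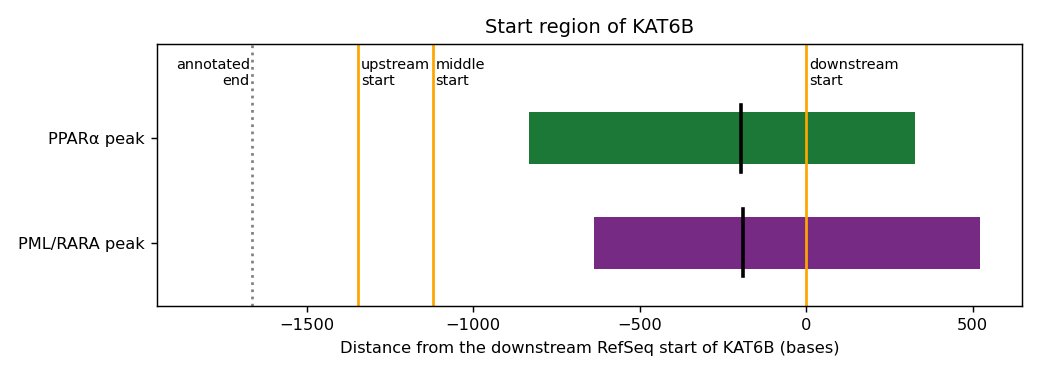
Peaks at the start of KAT6B, in bases from its downstream RefSeq start. Boxes are the called peaks, black ticks their summits, orange lines the 3 RefSeq starts and the dotted line the annotated gene boundary. Both boxes cover the downstream start and stop short of the other two, and the summits are 5 bases apart.

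Over the rest of KAT6B, 208 kb long, no PPARα peak was called. PML/RARA had 4 further peaks in the gene body and 1 at 3.80 kb beyond its far end, with folds of 4.28, 13.2, 5.71, 3.57 and 4.09 in order along the chromosome. The strongest of these, at 74921832 to 74922061, lay 95.3 kb from the downstream start at rank 15697.

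KAT6A, the MOZ acetyltransferase of hematopoietic stem cells, had 1 PPARα peak, at its upper annotated end on chromosome 8. It spanned 42051761 to 42052692, at fold 6.61 and −log10 q 6.99 at rank 4465. A PML/RARA peak of fold 20.8 and −log10 q of 88.1, from 42051952 to 42052637, lay wholly within it, with the summits 15 bases apart. The antisense gene KAT6A-AS1 spans this end as well, so the peak cannot be given to either gene. Of the 3 other PML/RARA peaks, 1 lay within 1 kb of the same end (fold 4.45), 1 within 1 kb of the lower end and 1 inside the gene. The last of these had the same values, fold 5.71 and −log10 q 5.34, as the one at the lower end. That same pair of values occurs at 740 PML/RARA peaks of the list.

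KAT5, the TIP60 acetyltransferase of the NuA4 complex, had the second-highest PPARα start peak of the 9. It spanned 65711982 to 65712606 on chromosome 11, at fold 11.6 and −log10 q 27.1 at rank 525, and its summit lay 71 bases before the start. The PML/RARA peak, 65711848 to 65712759, enclosed it, at fold 14.1, −log10 q 113 and a summit 222 bases before the start. A weaker PPARα peak (fold 4.68, −log10 q of 3.07), 619 bases beyond the other end of KAT5, lay in RNASEH2C, a ribonuclease subunit gene on the opposite strand. It was covered by a PML/RARA peak of fold 14.9 that spans the RNASEH2C start. PML/RARA also had a peak of fold 15.3 at 5.42 kb before KAT5, the highest fold of its window, with no PPARα call.

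KAT7, which encodes the HBO1 acetyltransferase of histones H3 and H4, had start peaks that reached into the gene. The PPARα peak spanned 49788593 to 49789265 on chromosome 17, at fold 8.88 and −log10 q 12.3 at rank 2225. Its summit was 297 bases past the start. The PML/RARA peak around it, 49788464 to 49789374, had fold 19.1 and −log10 q 129, with its summit 502 bases past the start. Both also covered the upper end of FAM117A, at 49789110, which overlaps KAT7 from the opposite strand, so the signal cannot be divided between these genes. A second PPARα peak (fold 4.54, −log10 q of 3.03) lay 16.5 kb beyond KAT7 and overlapped 2 PML/RARA peaks of folds 7.11 and 9.62.

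KAT8, the MOF acetyltransferase of histone H4, had the densest PPARα signal of the 9 windows, with 3 peaks in 53.7 kb. The one at its lower annotated end on chromosome 16, 31117432 to 31118020, had fold 7.15 and −log10 q 7.54 and also covered the upper end of BCKDK, a mitochondrial kinase gene. A second lay inside KAT8 at 31128590 to 31129443 (fold 6.71). The last lay inside PRSS36, a serine protease gene, 10.8 kb beyond KAT8 (fold 5.91). All 3 overlapped PML/RARA, and the PML/RARA folds were 16.7 at the lower end, 25.9 inside KAT8 and 27.5 inside PRSS36. The PML/RARA fold was lower at the gene's end than at the other 2 sites, while the PPARα folds ran in the opposite order. Another PML/RARA peak of fold 21.3, 11.6 kb from KAT8 on its lower-coordinate side, had no PPARα overlap.

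The GCN5 family carried PML/RARA peaks without PPARα in the lists as deposited, of which the PML/RARA list is the longer, and neither gene kept a PML/RARA start peak among as many top peaks as the PPARα list holds. No PPARα peak was called in the window of either gene, and the nearest lay 95.7 kb from KAT2A and 31.5 kb from KAT2B. KAT2A had 1 PML/RARA peak at its start on chromosome 17, 42121175 to 42121513, at fold 8.55, −log10 q 18.6 and a summit 14 bases before the start. The highest fold in its window, 22.7, was inside DHX58, an RNA sensor gene, 4.79 kb from KAT2A. KAT2B on chromosome 3 had 3 separate PML/RARA peaks around its start, at 20039783 to 20040230, 20040381 to 20040523 and 20040730 to 20041008. Their folds were 8.61, 4.68 and 5.83, with summits 439 and 2 bases before and 463 bases past the start. Another of fold 5.0 lay 14.4 kb into the gene. Because depth is unknown, the lack of a PPARα call means only that none passed the authors' threshold.

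EP300, the p300 coactivator, had its PPARα peak before the gene rather than on its start. The peak spanned 41091520 to 41092101 on chromosome 22, at fold 8.15 and −log10 q 10.7 at rank 2690, and its summit lay 846 bases before the start. A PML/RARA peak of fold 22.1 and −log10 q of 122, 41091356 to 41092056, shared 92.3% of it, with the summits 91 bases apart. PML/RARA had a second, weaker peak on the start itself (41092445 to 41092611, fold 5.25), which also holds the microRNA gene MIR1281. Further PML/RARA peaks lay 13.9 kb past the start (fold 5.0) and at the start of EP300-AS1, 17.2 kb beyond the gene (fold 11.0).

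CREBBP, the CBP coactivator and paralog of EP300, had start peaks of both antibodies that did not touch. RefSeq gives it 2 starts on the minus strand of chromosome 16, at 3880713 and 3880120. The PML/RARA peak, 3880760 to 3881038, had fold 23.0 and −log10 q 88.4, and its summit was 174 bases before the first of these. The PPARα peak, 3879662 to 3880024, was the weakest of the 13, at fold 4.31 and −log10 q 2.53 at rank 8852, and its summit lay 317 bases past the other start. Between the peaks were 735 bases, and this was the only one of the 13 PPARα peaks without a PML/RARA overlap.

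Inside CREBBP a PPARα peak of fold 5.60 (3857231 to 3857531), 22.7 kb past the nearer start, overlapped a PML/RARA peak of fold 9.21. The remaining PPARα peak of this window (fold 4.90) lay at the start of TRAP1, a mitochondrial chaperone gene, 7.50 kb beyond CREBBP, with a PML/RARA peak of fold 15.8. PML/RARA alone had 3 more peaks inside CREBBP, of folds 4.08, 3.87 and 12.7.

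**Figure D2:**
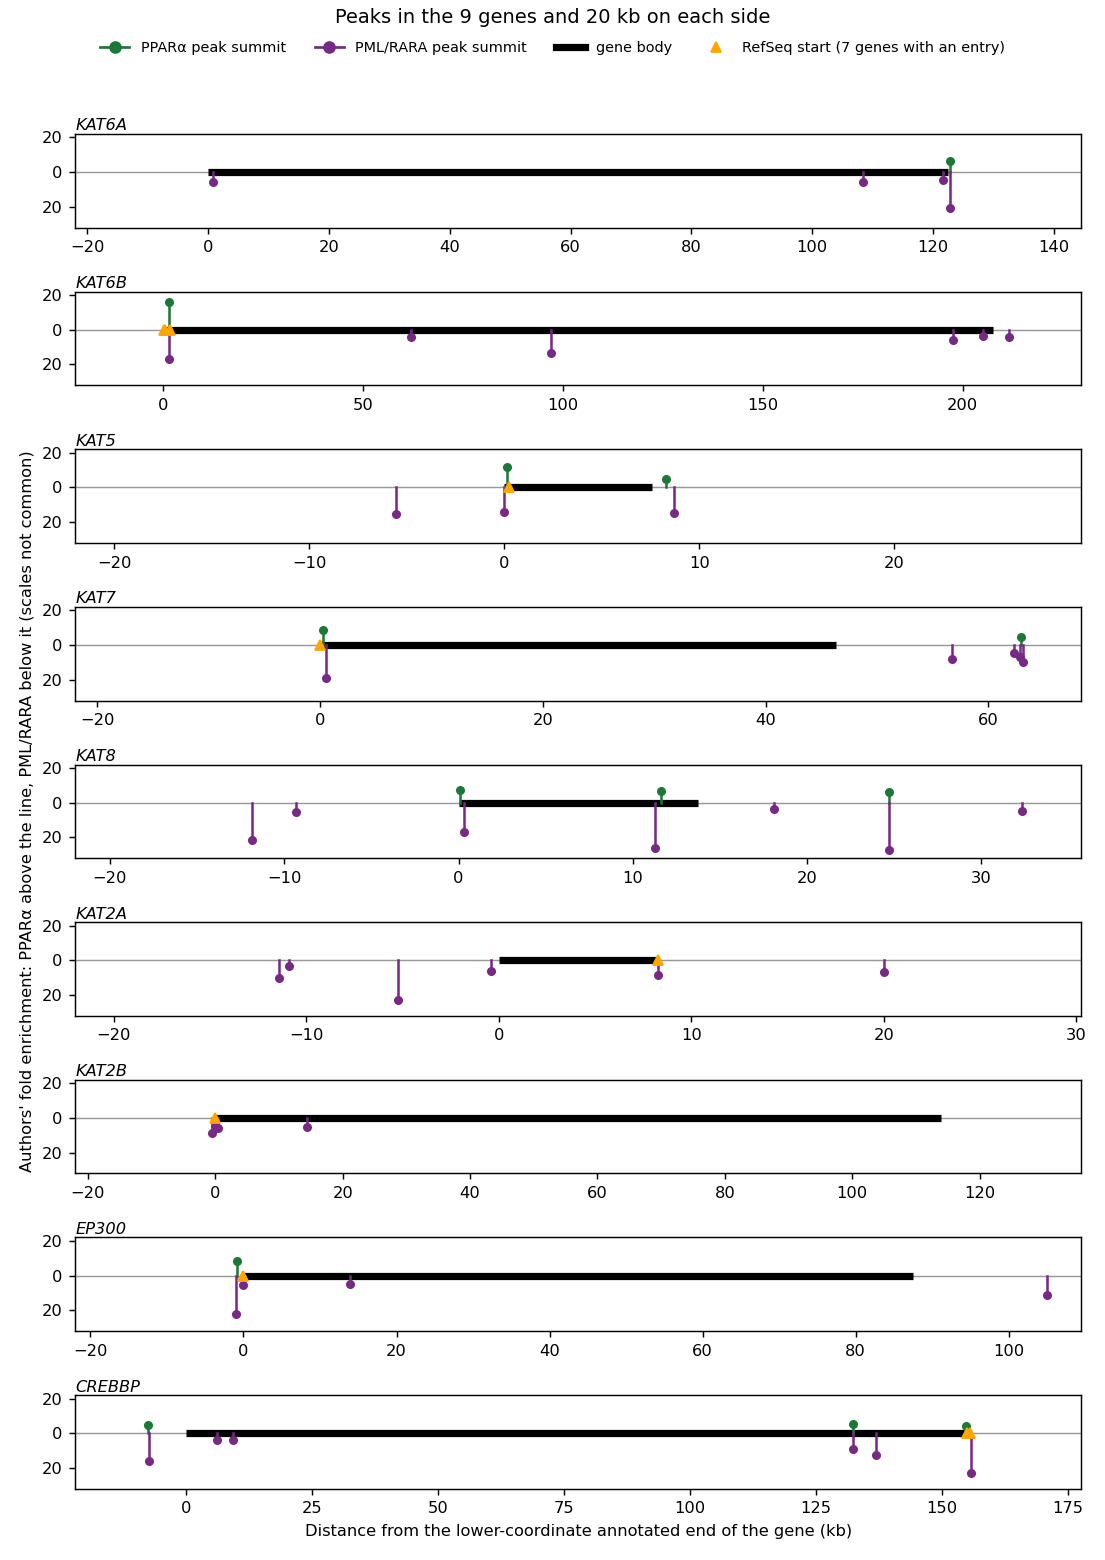
Called peaks of the 9 genes with 20 kb on each side, in kb from each gene's lower annotated end. Each stem ends at the authors' fold, PPARα above the line and PML/RARA below it on scales that are not common, and triangles mark RefSeq starts. Of the 13 PPARα stems 7 stand at the genes' own starts, and KAT2A and KAT2B have none.

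Set side by side, 7 of the 9 genes had a PPARα peak within 1 kb of a start, where 32.7% of all protein-coding genes did. All 9 had a PML/RARA peak there, against 57.7% of all protein-coding genes, and 7 had both, against 32.4%. The other 2, KAT2A and KAT2B, had PML/RARA without PPARα, as did 25.3% of all protein-coding genes. These counts move with the list used. With as many top PML/RARA peaks kept as there are PPARα peaks, 7 of 9 had a PML/RARA start peak, against 30.4% of all genes, and KAT2A and KAT2B had none. CREBBP had no PPARα start peak with −log10 q or fold of at least 5. Nothing is read from these counts, since the genes were chosen with the lists known. In the gene or its flanks, 7 of 9 had a PPARα peak (53.5% of all genes) and 9 of 9 a PML/RARA peak (78.9%). The windows of the 9 genes together held 1.16 PPARα and 4.01 PML/RARA peaks per 100 kb, beside 0.531 and 2.42 over the windows of all coding genes. The 9 genes are also longer, with a median of 87.5 kb against 24.2 kb, and the part of gene length in the window counts was not tested.

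By fold, the PPARα start peaks ran from KAT6B (16.2) over KAT5 (11.6), KAT7 (8.88), EP300 (8.15), KAT8 (7.15) and KAT6A (6.61) to CREBBP (4.31). The median of the PPARα list is 6.25 and its upper quartile 8.26, so KAT6B, KAT5 and KAT7 lay above the quartile and CREBBP below the median. The highest PML/RARA start peak of each gene ran from CREBBP (23.0) over EP300 (22.1), KAT6A (20.8), KAT7 (19.1), KAT6B (17.1), KAT8 (16.7) and KAT5 (14.1) to KAT2B (8.61) and KAT2A (8.55). All 9 exceeded that list's median of 7.41, but only the highest start peak of each gene is taken here. Weaker start peaks of KAT6A (5.71, 4.45), KAT2B (5.83, 4.68) and EP300 (5.25) lay below it. Medians and quartile of the lists cover peaks at any place. The share of all coding genes with a start peak above them was not computed. By fold the 2 orders differ, CREBBP being last among the 7 PPARα start peaks and first for PML/RARA. By −log10 q KAT6B was first among the start peaks of the 9 genes for both antibodies (122 for PPARα, 632 for PML/RARA). For PML/RARA, CREBBP (88.4) came after KAT7 (129), EP300 (122), KAT5 (113) and KAT8 (95.4). Without replicates, it is not known which neighbours in either order differ by more than the spread between libraries.

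**Figure D3:**
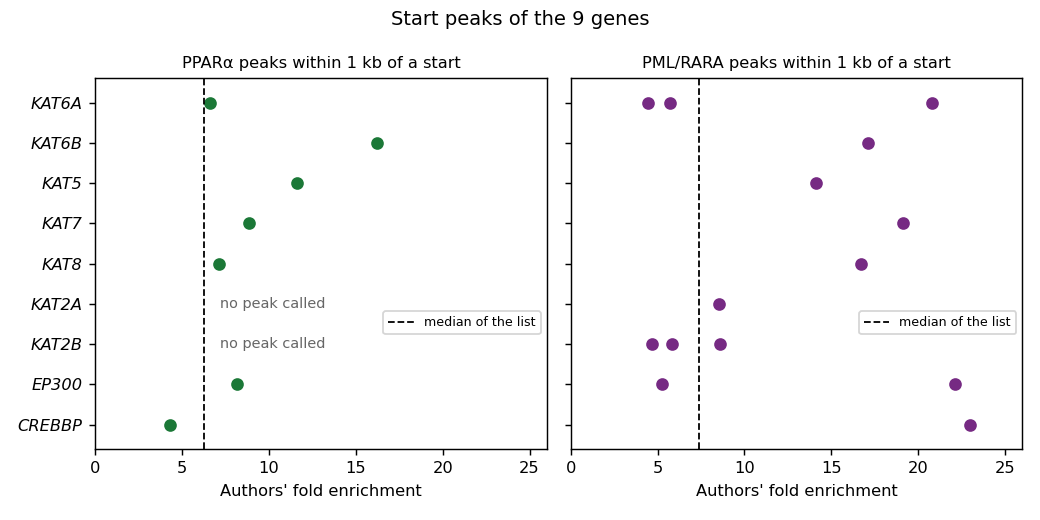
Authors' fold enrichment of each peak within 1 kb of a start of the 9 genes, PPARα left and PML/RARA right; for KAT6A and KAT8 either annotated end counts as a start. Dashed lines are the list medians, 6.25 and 7.41. KAT6B stands highest for PPARα at 16.2, and KAT2A and KAT2B have no PPARα peak.

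Of the 13 PPARα peaks, 12 overlapped PML/RARA by at least 1 base (92.3%, 95% Clopper-Pearson interval 64.0 to 99.8), close to the 90.1% of the 9819 PPARα peaks on chromosomes 1 to 22 and X. Intervals cover counting error over peaks only. The nearest overlapping summits were 5 to 382 bases apart with a median of 121, beside a median of 166 over all overlapping PPARα peaks. In the other direction, 13 of the 45 PML/RARA peaks overlapped PPARα (28.9%, 16.4 to 44.3), beside 21.4% in the whole list. At the genes' own starts lay 7 of the 13 PPARα peaks (53.8%, 25.1 to 80.8) and 14 of the 45 PML/RARA peaks (31.1%, 18.2 to 46.6), with either annotated end of KAT6A and KAT8 counted as a start. Over the lists, 57.9% of all PPARα and 28.5% of all PML/RARA peaks lay at the start of any coding gene. That measure is wider than the genes' own starts, so the shares cannot be compared directly. Away from the member's own start, 2 PPARα and 11 PML/RARA peaks lay within 1 kb of a start of another annotated gene, coding or noncoding. For a neighbour without a known start, either annotated end counted here too, so some of these peaks may lie at the far end of a neighbour.

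The PML/RARA peaks of these windows that overlapped PPARα had a median fold of 16.7 (n = 13, 7.11 to 27.5), and those without had a median of 5.71 (n = 32, 3.47 to 23.0). The ranges overlap. High PML/RARA folds without PPARα stood at the CREBBP start (23.0), in DHX58 beside KAT2A (22.7) and on the lower-coordinate side of KAT8 (21.3). Over the whole PML/RARA list the medians are 14.6 with PPARα and 6.43 without.

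**Figure D4:**
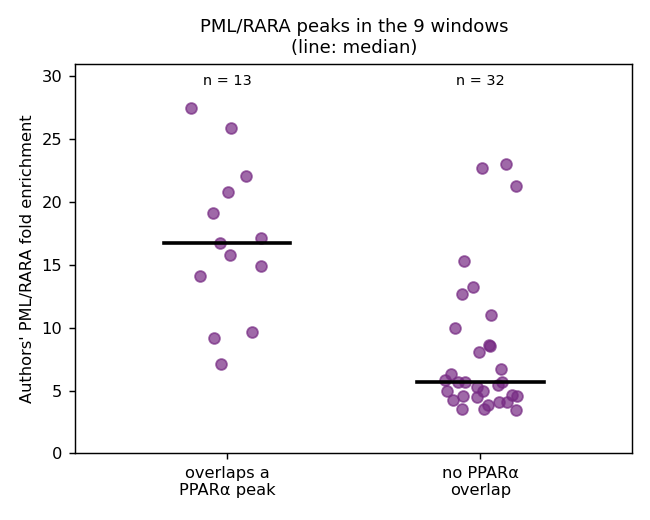
Authors' fold of the 45 PML/RARA peaks in the 9 windows, split by overlap with a PPARα peak; each point is a peak and lines are medians. The medians are 16.7 for the 13 overlapping peaks and 5.71 for the 32 others, and 3 peaks without overlap exceed 20.

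The flank of 20 kb decides which neighbouring peaks are counted. The outermost PPARα peak inside it lay 16.5 kb from KAT7 (fold 4.54), and the nearest outside lay 22.7 kb from KAT8 (fold 4.64). For PML/RARA the outermost inside lay 18.6 kb from KAT8 (fold 4.56), and the nearest outside 22.6 kb from KAT8 (fold 17.6).

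The acetyltransferases work in complexes, and 85 genes of their partners, other acetyltransferases and nuclear receptor coactivators were listed by function. Of these, 62 had a PPARα peak within 1 kb of a start and 79 a PML/RARA peak, where 32.7% and 57.7% of all coding genes did. Each of the 62 also had a PML/RARA start peak, as did 6469 of the 6537 coding genes with a PPARα start peak. Among genes with a PML/RARA start peak, PPARα was present at 62 of 79 partners (78.5%) and at 56.1% of all coding genes. The lists were written with results of these data known, and neither share was tested. In the partner paragraphs below, the peaks said to be highest or to lead are so by −log10 q, not by fold. Neighbouring genes are not given for partner peaks, so a peak may also lie at the start of another gene.

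In the NuA4 complex of KAT5, 15 of 16 partners had a PPARα start peak and 16 of 16 a PML/RARA start peak. The highest PPARα peaks were at MBTD1, a methyl-lysine reader (fold 18.2, −log10 q of 66.3), and at RUVBL2, an ATPase (13.0, 24.5), with PML/RARA folds of 18.5 and 22.1. MRGBP was the partner with PML/RARA alone at its starts (fold 4.55), with 1 PPARα peak elsewhere in its window.

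Partners of KAT6A and KAT6B had PPARα peaks at 3 of 5 starts and PML/RARA peaks at 5 of 5. ING5, a reader of methylated histone H3, had a PPARα fold of 10.9, and BRPF1, the scaffold of the complex, one of 10.6 with a PML/RARA fold of 28.3. MEAF6 (PML/RARA fold 19.6) and BRD1 (4.53) had PML/RARA alone at their starts, with 1 and 0 PPARα peaks elsewhere in the window. Each partner gene was put in 1 list only, so a partner shared between complexes counts in 1 of them. The 4 listed HBO1 partners of KAT7 had PPARα peaks at 2 of 4 starts and PML/RARA peaks at 4 of 4. There PPARα folds were 7.01 at ING4 and 5.32 at JADE1, while JADE2 (PML/RARA 11.5) and JADE3 (12.4) had no PPARα start peak. Elsewhere in the window JADE2 had 2 PPARα peaks and JADE3 had 0.

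The MSL and NSL partners of KAT8 had PPARα peaks at 9 of 11 starts and PML/RARA peaks at 10 of 11, led by the scaffold gene KANSL1 (PPARα fold 11.9, PML/RARA 19.4) and by MSL2, a ubiquitin ligase gene (9.55, 17.5). MSL1 (PML/RARA fold 9.10) had no PPARα start peak but 1 PPARα peak elsewhere in its window. For SAGA and ATAC, the complexes of KAT2A and KAT2B, PPARα marked 13 of 19 and PML/RARA 18 of 19. PPARα peaks lay at the starts of most of these partners though not at either catalytic gene. The adaptor genes TADA3 (PPARα 13.8, PML/RARA 11.9) and TADA2B (12.6, 16.7) led, and ATXN7L3 (PML/RARA 16.0) and TADA2A (17.6) had PML/RARA alone at their starts, with 2 and 1 PPARα peaks elsewhere in the window.

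Nuclear receptor coactivators had PPARα peaks at 10 of 17 starts and PML/RARA peaks at 15 of 17. PRMT1, an arginine methyltransferase (PPARα fold 9.22, PML/RARA 11.3), and ASXL2 (11.2, 21.4) led, and NCOA4 (PML/RARA 23.1) and CITED4 (16.7) had PML/RARA alone at their starts. NCOA4 had 1 PPARα peak elsewhere in its window and CITED4 none. CITED1, which binds p300 and CBP, had no peak of either list in the gene or 20 kb on each side, as for 20.4% of coding genes. Among other acetyltransferases PPARα marked 10 of 13 and PML/RARA 11 of 13, with ATF2 (PPARα 12.2, PML/RARA 18.7) and NAT10, an RNA acetyltransferase (9.45, 17.5), highest for PPARα. ATAT1, the tubulin acetyltransferase, had PML/RARA alone at its starts (15.5), with 2 PPARα peaks elsewhere in the gene or its flanks.

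**Figure D5:**
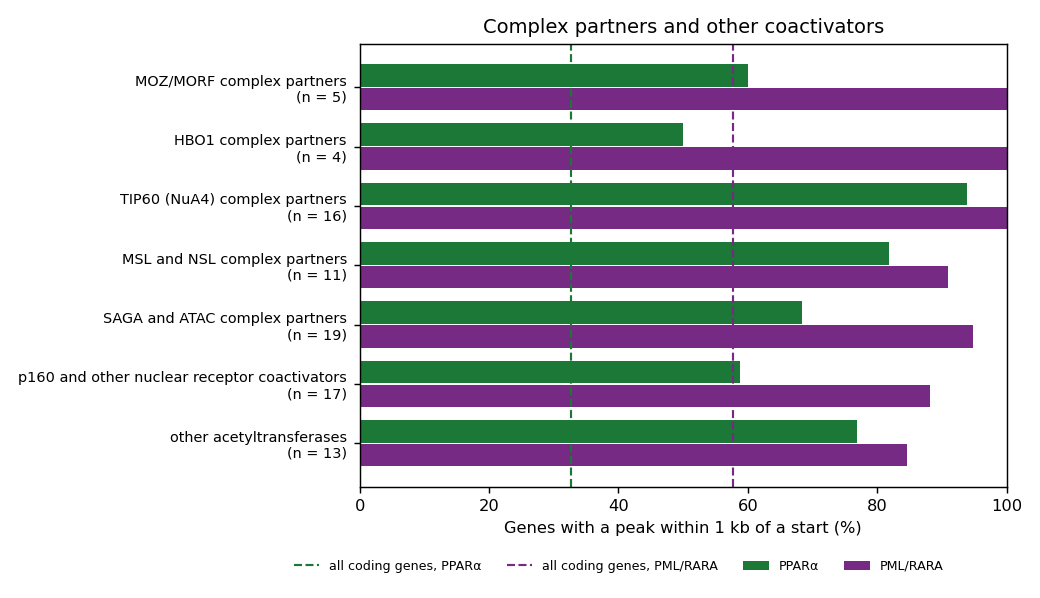
Share of each list of complex partners with a peak within 1 kb of a start, PPARα above PML/RARA in each pair of bars. Dashed lines give all protein-coding genes, 32.7% and 57.7%. The listed NuA4 partners had PPARα at 15 of 16 starts and the listed HBO1 partners at 2 of 4.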

How the data were processed

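CUT&Tag was run once per antibody in NB4 cells. The authors deposited 1 narrowPeak list per antibody. Coordinates are on hg38, and Bowtie2 2.2.9, SAMtools, MACS 1.4.2 and bedtools were used, per the submitters' processing notes, which give no roles. The narrowPeak layout belongs to MACS releases after that one, so the version used is uncertain. In the deposited lists each peak has a fold enrichment (a linear ratio over background), a −log10 p, a −log10 q and a score that follows the −log10 q. The smallest −log10 q was 1.32 for PPARα and 1.30 for PML/RARA. The role of the IgG libraries and the treatment of duplicates are not given in the sources used here.

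Gene positions and starts came from RefSeq tables of GRCh38.p14 (hg38). Starts were known for 15813 of 19974 coding genes. For the rest, KAT6A and KAT8 among them, either annotated end counted as a start. A gene was called when a peak overlapped 1 kb on either side of a start. The tables hold no exons, so peaks inside genes were not divided further. Overlap needed 1 base. Interval code was tested on simulated data. Python 3.11.15, pandas 2.3.3 and SciPy 1.17.1 were used.

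Members and lists were chosen with earlier results of these data known. All 9 genes were described. Of each partner list, the rule named the 2 highest PPARα start peaks by −log10 q, the 2 highest PML/RARA ones without PPARα, and genes with no peak. The CREBBP promoter nearest its PPARα peak met the rule for display but is covered by neither list and was left out. The middle KAT6B stretch, also covered by neither, was shown, so coverage alone did not decide the display. Alternatives were other flanks, start windows, thresholds, overlap rules and definitions of starts.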

Additional observations from a re-analysis of the deposited data

How the results depend on the processing

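Under 12 alternatives, 37 of 45 recomputed counts stayed within 1.5 times the reported ones. The other 8 were counts of peaks in windows. With 50 kb on each side the windows held 21 PPARα and 75 PML/RARA peaks, and 19 PPARα peaks overlapped PML/RARA. Within gene bodies alone these were 8, 23 and 7. With −log10 q of at least 5, 8 PPARα peaks were left, and when as many top PML/RARA peaks were kept as there are PPARα peaks, 13 PML/RARA peaks were left. CREBBP was the PPARα start call lost with −log10 q or fold of at least 5. KAT2A and KAT2B lost their PML/RARA start calls in the shortened list. Taking either annotated end of every gene as a start, an alternative chosen after seeing the data, lost the PML/RARA call at KAT6B. The alternative restricted to genes with an entry in the promoter table, also chosen then, leaves 7 of the 9 genes.

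The lists carry no depth, so a missing peak is not evidence that the protein was absent. Fold and q come from 1 library per antibody, and a PPARα fold cannot be set against a PML/RARA fold. No paired analysis was possible because each antibody has 1 list and no result comes from a test.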
